A study of Arabidopsis thaliana with 6 samples.

Results

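The Clp protease of the chloroplast stroma was examined at the level of its transcripts in Arabidopsis thaliana seedlings carrying the label pp7l-1 and in the wild type. The 10 genes were taken by locus code, as subunits of this protease, out of 33341 genes counted. They comprise 1 plastid gene, clpP1 (ATCG00670), and 9 nuclear genes. Of the nuclear genes, CLPP3 (AT1G66670), CLPP4 (AT5G45390), CLPP5 (AT1G02560) and CLPP6 (AT1G11750) encode catalytic subunits, CLPR1 (AT1G49970), CLPR2 (AT1G12410), CLPR3 (AT1G09130) and CLPR4 (AT4G17040) encode subunits without a catalytic triad, and CLPC1 (AT5G50920) encodes an unfoldase. All 10 passed the filter on low counts.

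In the chloroplast the Clp protease is a barrel of stacked rings whose active sites face an inner chamber. One kind of ring holds clpP1 together with the R subunits, and the other holds the nuclear P subunits. The Hsp100 unfoldases CLPC1, CLPC2 and CLPD bind proteins, unfold them with ATP and pass them into the chamber. Loss of most core subunits is known to give pale or inviable plants, so the protease is counted among the housekeeping functions of the organelle, and it needs both genomes for its assembly.

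RNA sequencing reads were counted per gene in 3 libraries labelled pp7l-1 and 3 of the wild type, from whole seedlings 4 days old. Both groups were grown in long days at 22 °C and 100 µmol photons per square metre and second, on 0.8% agar with 1% sucrose. The label pp7l-1 stands for a mutant of PP7L, a gene related to protein phosphatase 7 that the series title links to chloroplast development. The titles call the wild type Col and do not describe the lesion of pp7l-1. The labels do not say that replicates were separate cultures, so the tests measure the spread among these 6 libraries only.

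The libraries labelled pp7l-1 held 11269557 to 13724880 counts and those of the wild type 14342054 to 16744328. PP7L (AT5G10900) stood at 22.9, 17.2 and 17.5 CPM in libraries labelled pp7l-1, against 1.69, 1.41 and 1.95 CPM in the wild type. CPM is the count per 1e+06 counts, here with library sizes scaled by edgeR's TMM factors. Loss of the PP7L transcript would give fewer reads under this label, not more, so the genotype rests on the labels, as does every direction given for the Clp genes. Replicate 1 labelled pp7l-1 stood apart with 7.56% of its counts in nuclear ribosomal RNA genes, where the other 5 libraries had 0.0151% or less. By edgeR, root markers were lower in all 8 genes tested of 9 listed (7 with DESeq2, 8 with limma voom), with summed levels of 20.9 to 30.1 CPM in libraries labelled pp7l-1 and 94.9 to 101 CPM in the wild type. Seed storage markers were higher by edgeR in all 4 tested of 7 listed, and in 3 by DESeq2 and by limma voom, with summed levels of 29.2 to 119 CPM in libraries labelled pp7l-1 and 3.47 to 5.84 CPM in the wild type. Green tissue markers were higher in 2 of 5 by each tool, with 13760 to 17009 CPM in libraries labelled pp7l-1 and 10340 to 13677 CPM in the wild type. Over all genes, edgeR called 10.7% higher and 11.3% lower. Transcripts of whole seedlings cannot tell a change in the share of a tissue from a change in RNA per cell, and the part of these marker differences in the results below was not tested.

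The sequences around the catalytic serine show which of the genes encode a proteolytic subunit. Each line gives 33 bases of coding sequence, 5′ to 3′ on the coding strand, with the codon that aligned to the serine of the catalytic triad in capitals (RefSeq, assembly TAIR10.1).
clpP1: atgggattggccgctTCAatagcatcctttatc
CLPP3: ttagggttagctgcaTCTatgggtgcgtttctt
CLPP4: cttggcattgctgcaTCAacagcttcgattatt
CLPP5: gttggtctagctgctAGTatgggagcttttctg
CLPP6: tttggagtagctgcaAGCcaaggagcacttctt
CLPR1: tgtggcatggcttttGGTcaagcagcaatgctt
CLPR2: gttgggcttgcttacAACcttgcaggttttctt
CLPR3: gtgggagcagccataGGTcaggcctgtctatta
CLPR4: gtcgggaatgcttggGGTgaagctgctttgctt
The clpP1 window lies on the plastid genome at 70698 to 70730 on the minus strand, and the CLPR1 window on chromosome 1 at 18502603 to 18502635 on the minus strand. In CLPP5 the codon is split by an intron, so that its window runs from 538992 to 539270 on the plus strand of chromosome 1. The codons TCA, TCT, AGT and AGC of the P genes all read serine, whereas GGT reads glycine and AAC asparagine. Over the whole triad, all 5 P genes had the codons for serine, histidine and aspartate (3 of 3 columns), and all 4 R genes had 0 of 3. Encoded proteins of the 9 ring subunits were 25.5% to 43.4% identical in pairs, and no 2 coding sequences shared an identical run longer than 15 bases.

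Of the 10 Clp genes, 6 were higher in the libraries labelled pp7l-1, 0 were lower and 4 did not pass the test (edgeR's quasi-likelihood test, Benjamini-Hochberg adjusted over all genes, threshold 0.05). Among all 18115 genes tested, the shares were 10.7% higher and 11.3% lower. The genes that rose were CLPP3, CLPP4, CLPP6, CLPR2, CLPR3 and CLPC1, all nuclear. All 10 log2 fold changes were above 0, as were 49.4% of those of all genes, and their median was 0.75, against -0.007 over all genes. The groups did not overlap in 9 of the 10, with the libraries labelled pp7l-1 above the wild type, which was the case for 18.7% of all genes. At an unadjusted p under 0.05, edgeR had 8 of the 10 higher, against 17% of all genes, and 0 lower, against 17.7% of all genes. By adjusted p, DESeq2 called 6 higher and 0 lower (8.96% of all genes higher, 9.35% lower), and limma voom called 7 higher and 0 lower (10.4% higher, 11.5% lower). When libraries were scaled on their size alone, 10 of 10 were called higher, but so were 24.8% of all genes, with 4.19% lower, and the median of all genes moved to 0.41. Differences are therefore given relative to the bulk of genes.

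**Figure D1:**
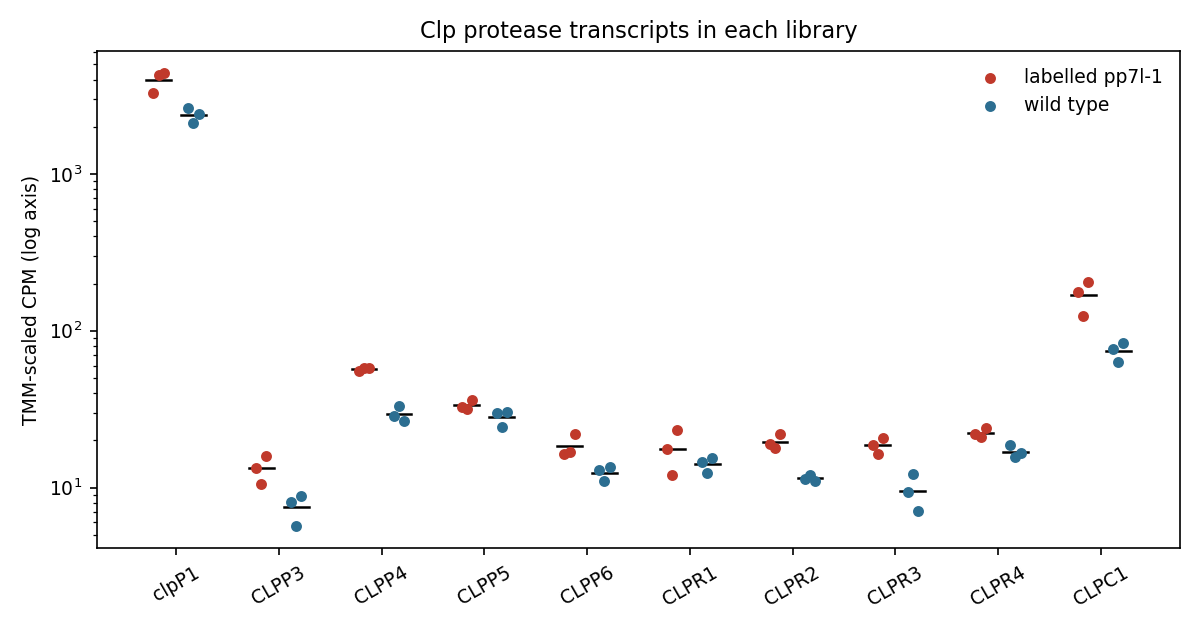
Level of each of the 10 Clp genes in each library, in TMM-scaled CPM on a log axis. Red points are the 3 libraries labelled pp7l-1, blue points the 3 of the wild type, and the black lines their means. The red points lie above the blue ones in every gene except CLPR1, where the groups overlap.

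CLPC1, the main unfoldase of the stroma, which is also bound to the protein import machinery at the inner envelope, had the highest fold change of the 10 with all 6 libraries, and CLPR3 was above it without wild-type replicate 2 (log2 fold changes of 1.16 for CLPR3 and 1.08 for CLPC1). Its level was 176, 124 and 205 CPM in libraries labelled pp7l-1, against 76.2, 63.2 and 83.0 CPM in the wild type. The lowest library labelled pp7l-1 lay well above the highest of the wild type. The log2 fold change was 1.18 ± 0.23 (SE; adjusted p = 0.00181), and the gene passed under all 15 alternatives tried, among them leaving out each library in turn. CLPC1 (chromosome 5, 20715453 to 20720681, minus strand) has a near copy, CLPC2, but their coding sequences were 77.3% identical, with a longest identical run of 38 bases.

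Among the nuclear catalytic subunits, CLPP4 and CLPP3 had the higher fold changes, and their order changed with the libraries. CLPP4 stood at 55.3, 57.7 and 57.5 CPM in libraries labelled pp7l-1, against 28.6, 33.1 and 26.6 CPM in the wild type, a log2 fold change of 0.95 ± 0.18 (adjusted p = 0.00198). CLPP3 had 13.3, 10.5 and 15.9 CPM in libraries labelled pp7l-1 and 8.05, 5.71 and 8.80 CPM in the wild type. Its log2 fold change of 0.83 ± 0.21 passed (adjusted p = 0.0117), though not without wild-type replicate 2, where it was 0.65 (adjusted p = 0.0657). Without replicate 2 labelled pp7l-1 the log2 fold changes were 1.00 for CLPP3 and 0.96 for CLPP4, and without wild-type replicate 3 they were 0.97 and 0.90. The lowest CLPP3 library labelled pp7l-1 lay above the highest of the wild type.

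CLPP6 had 16.4, 16.7 and 21.8 CPM in libraries labelled pp7l-1, against 12.8, 10.98 and 13.4 CPM in the wild type. The log2 fold change was 0.57 ± 0.19 (adjusted p = 0.0404), the weakest of the 6 calls. With DESeq2 it did not pass (adjusted p = 0.0549), nor on leaving out replicate 1 or 3 labelled pp7l-1 (0.0614 and 0.126) or wild-type replicate 1, 2 or 3 (0.0864, 0.145 and 0.0619). Of its exon bases, 22.7% lie in another annotated gene, so some of its reads are uncertain. CLPP5 had 32.8, 31.6 and 36.3 CPM in libraries labelled pp7l-1 and 29.9, 24.4 and 30.3 CPM in the wild type. The groups did not overlap, but the log2 fold change of 0.25 ± 0.18 did not pass (adjusted p = 0.350).

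The R subunits fit into the ring of clpP1 and lack the triad. CLPR2 stood at 19.0, 17.8 and 22.0 CPM in libraries labelled pp7l-1, against 11.3, 12.1 and 11.02 CPM in the wild type, with a log2 fold change of 0.77 ± 0.18 (adjusted p = 0.00592). CLPR3 stood at 18.6, 16.5 and 20.7 CPM in libraries labelled pp7l-1, against 9.39, 12.2 and 7.13 CPM in the wild type. The log2 fold change of CLPR3 was 0.95 ± 0.21 (adjusted p = 0.00436). Its spread in the wild type was wide, and the lowest count behind any value of the 10 genes was that of CLPR3 in wild-type replicate 3, with 77 reads (exact Poisson 95% interval 60.8 to 96.2, counting error only). Like CLPC1 and CLPP4, both genes passed under all 15 alternatives.

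The other two R genes did not pass. CLPR4 had 21.9, 21.0 and 24.1 CPM in libraries labelled pp7l-1 and 18.6, 15.7 and 16.6 CPM in the wild type, with groups that did not overlap and a log2 fold change of 0.40 ± 0.18 (adjusted p = 0.118). CLPR1 had 17.5, 12.1 and 23.3 CPM in libraries labelled pp7l-1 and 14.5, 12.3 and 15.5 CPM in the wild type. Replicate 2 labelled pp7l-1 lay below all 3 wild-type libraries, so the groups overlapped, and the log2 fold change was 0.33 ± 0.22 (adjusted p = 0.318). Another gene covers 18.4% of the exon bases of CLPR1.

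**Figure D2:**
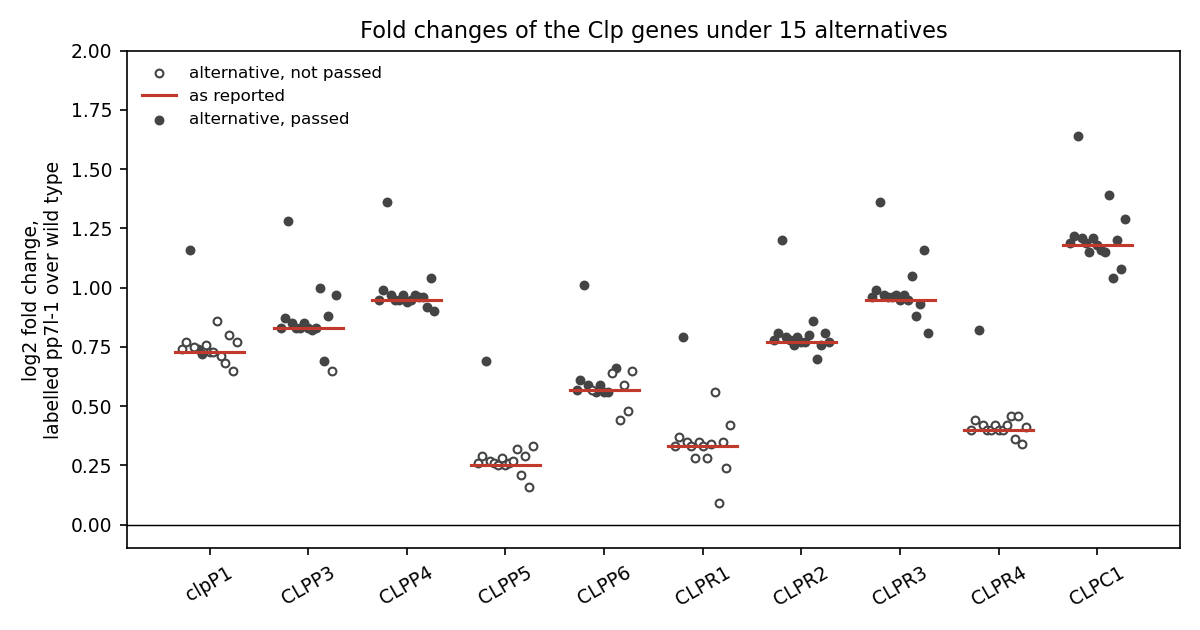
Log2 fold change of each Clp gene, libraries labelled pp7l-1 over wild type, as reported (red line) and under 15 alternatives of scaling, test, filter, replicate block and libraries left out (points, filled where the adjusted p was under 0.05). CLPP4, CLPR2, CLPR3 and CLPC1 have filled points only, and no point of the 10 genes lies below 0.

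The plastid subunit clpP1 is transcribed in the organelle and its pre-mRNA carries introns, which RefSeq gives as 3 exon blocks between 69910 and 71882 on the minus strand of the plastid genome. Its level was 3283, 4265 and 4379.7 CPM in libraries labelled pp7l-1, against 2624, 2126 and 2421 CPM in the wild type. The groups did not overlap, with means of 3976 ± 603 and 2390.2 ± 250.3 CPM (SD, n = 3 each). The log2 fold change was 0.73 ± 0.30, which did not pass with edgeR (adjusted p = 0.0889) but passed with DESeq2 (0.00165) and limma voom (0.0453) and on library size alone (0.0126). Of 105 plastid genes tested, 46 were called higher and 5 lower, with a median log2 fold change of 0.83, and 54 of them had a higher value than clpP1. On its own genome clpP1 was therefore near the middle.

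As a share of all plastid counts, clpP1 took 0.647%, 0.719% and 0.936% in the libraries labelled pp7l-1, against 0.351%, 0.291% and 0.251% in the wild type. The groups did not overlap (difference 0.470 percentage points, exact two-sided permutation p = 0.1, the smallest that 3 against 3 libraries allow). That total is dominated by 1 gene, ATCG00020, which held 20.5% to 28.6% of all counts in the libraries labelled pp7l-1 and 45.7% to 51.8% in the wild type. With ATCG00020 left out, the clpP1 share was 1.06%, 1.33% and 1.39% in the libraries labelled pp7l-1 and 1.18%, 0.891% and 0.880% in the wild type, and the groups overlapped (exact permutation p = 0.2). When ATCG00490 was left out as well, the shares were 2.14%, 2.29% and 2.23% against 1.77%, 1.58% and 1.29%, without overlap (exact permutation p = 0.1). The size of the difference in share thus moved with which abundant plastid genes stood in the total.

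**Figure D3:**
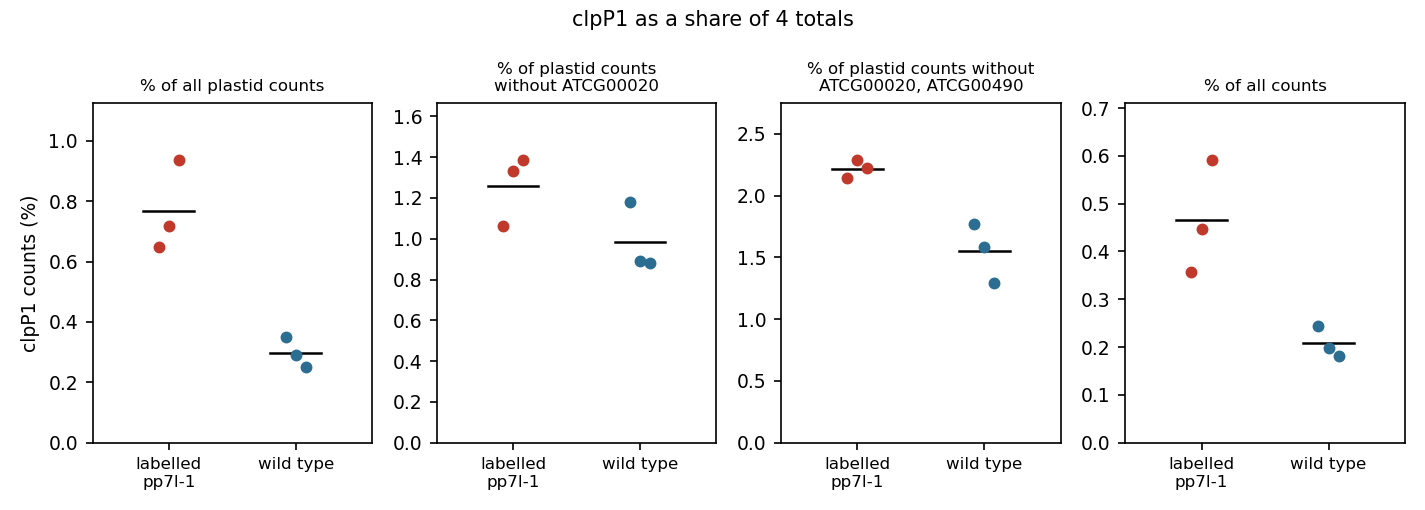
clpP1 counts as a percent of 4 totals in each library. Left points in each panel are the 3 libraries labelled pp7l-1, right points the 3 of the wild type, and black lines the means. The groups overlap in the second panel, where ATCG00020 is left out of the plastid total.

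RefSeq places clpP on the plastid genome between the first exon of rps12 with rpl20 on one side and psbB on the other. The counts table names these loci by code, of which only ATCG00660 (rpl20, a protein of the large plastid ribosomal subunit) is paired with a name in the annotation used here besides clpP1. In a list of 8 neighbouring plastid codes, 5 were higher, 0 lower and 3 did not pass, where 43.8% of the tested plastid genes were called higher, so the count is not read as particular to this stretch. DESeq2, limma voom and edgeR at an unadjusted p under 0.05 also had 0 lower. The gene rpl20 stood at 338, 350.0 and 384 CPM in libraries labelled pp7l-1, against 154, 149 and 152 CPM in the wild type (log2 fold change 1.23 ± 0.21, adjusted p = 0.00064). ATCG00065 had the highest log2 fold change of the list, 1.85 ± 0.28 (adjusted p = 0.000268), and both passed under all 15 alternatives. The calls of ATCG00650, ATCG00680 and ATCG00690 were lost without wild-type replicate 1 (adjusted p = 0.0576, 0.11 and 0.0941), and those of ATCG00650 and ATCG00690 also without wild-type replicate 2 (0.101 and 0.0804). ATCG00690 was lost as well without replicate 3 labelled pp7l-1 (0.0766). ATCG00700, one of the 3 that did not pass (log2 fold change 0.97 ± 0.35, adjusted p = 0.0601), passed under 7 of the 15 alternatives, among them the replicate block (0.0128) and leaving out replicate 1 or 2 labelled pp7l-1 (0.0343 and 0.0217) or wild-type replicate 3 (0.0251). Without replicate 3 labelled pp7l-1 its log2 fold change was 0.39.

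Levels of different subunits can be compared per length of exon, here as TMM-scaled CPM per kilobase. In the libraries labelled pp7l-1 the nuclear genes ran in the order CLPC1 (47.9 ± 11.7), CLPP4 (42.5 ± 1.002), CLPP5 (22.7 ± 1.65), CLPR2 (16.2 ± 1.80), CLPP6, CLPR4, CLPR3, CLPR1 and CLPP3 (9.51 ± 1.96 CPM per kilobase; SD, n = 3). The lowest CLPP4 library lay above the highest of CLPP5, and the lowest CLPP5 library above the highest of CLPR2. The ranges of all other neighbours overlapped. Wild-type seedlings had the order CLPP4 (22.0 ± 2.504), CLPC1 (21.1 ± 2.86), CLPP5 (19.1 ± 2.22), CLPR4 (10.1 ± 0.866), CLPR2, CLPP6, CLPR1, CLPR3 and CLPP3 (5.40 ± 1.16 CPM per kilobase), and only CLPP5 and CLPR4 were separated. The sum over the 9 nuclear genes was 186, 164 and 212 CPM per kilobase in the libraries labelled pp7l-1, against 113, 106 and 113 in the wild type, without overlap.

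The make-up of the nuclear core, which needs no scaling between libraries, was compared as each subunit's percent of the summed per-length level of the 8 nuclear P and R genes. CLPP5 made up 16.3%, 16.6% and 15.9% in the libraries labelled pp7l-1, against 22.1%, 18.8% and 23.0% in the wild type. CLPR4 likewise held a smaller percent, with a mean of 9.53 ± 0.217% in the libraries labelled pp7l-1 and 11.3 ± 0.714% in the wild type. CLPR2 was the reverse, at 11.6 ± 0.208% and 10.6 ± 0.678%, with 11.41% in its lowest library labelled pp7l-1 and 11.40% in its highest wild-type library. In these 3 of the 8 genes the groups did not overlap, which 3 against 3 libraries can show without a difference, and no test was made. The percents of a library share a fixed total, so the percent of 1 gene depends on the others. CLPP4, the largest component, made up 30.6 ± 2.79% in the libraries labelled pp7l-1 and 24.7 ± 3.18% in the wild type, with overlap. The P genes together made up 63.4 ± 1.93% and 62.3 ± 1.26%, also with overlap.

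**Figure D4:**
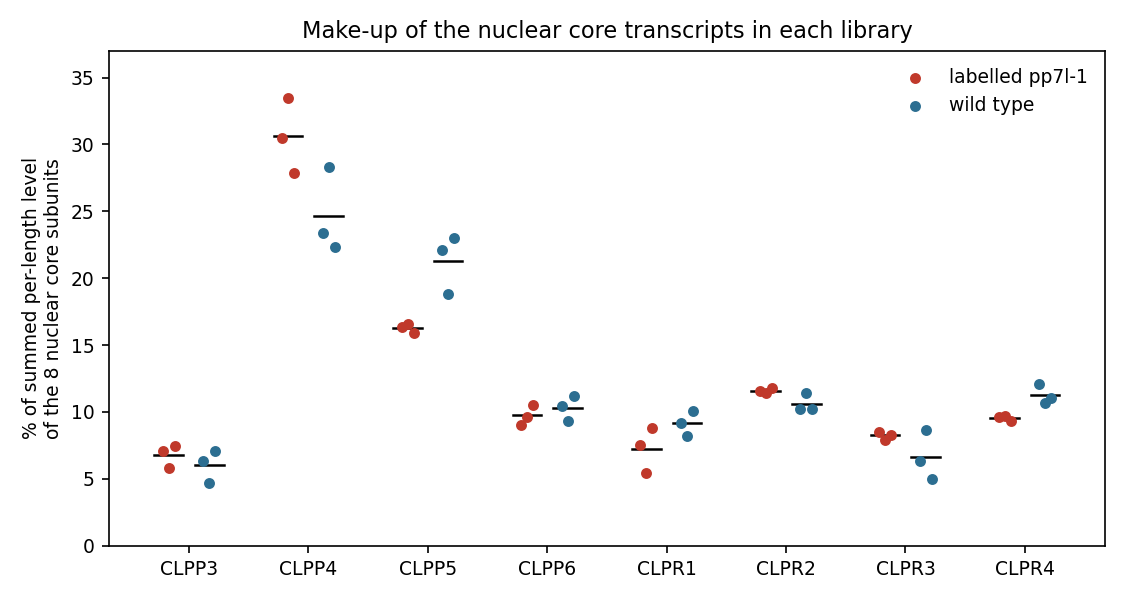
Percent of the summed per-length level of the 8 nuclear core subunits held by each gene in each library. Red points are the 3 libraries labelled pp7l-1, blue points the 3 of the wild type, and black lines their means. The groups are apart in CLPP5, CLPR4 and CLPR2 and overlap in the other 5 genes.

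Relative to the core, the unfoldase transcript had higher ratios in the libraries labelled pp7l-1, and no test was made. CLPC1 over the mean nuclear core subunit, per length, was 2.96, 2.19 and 3.03 in the libraries labelled pp7l-1, against 1.90, 1.65 and 2.12 in the wild type. Against CLPD, an unfoldase also known as a gene of early dehydration and senescence (ERD1), the ratio was 10.3, 10.04 and 11.1 in the libraries labelled pp7l-1 and 4.31, 3.59 and 3.89 in the wild type. Both ratios were without overlap, which 3 against 3 libraries can show without a difference. CLPC1 over CLPC2 was 7.62, 5.70 and 8.43 in the libraries labelled pp7l-1 and 8.45, 6.53 and 10.4 in the wild type, with overlap. The ratio of clpP1 to the mean nuclear core subunit overlapped too, at 328, 448 and 385 in the libraries labelled pp7l-1 and 388, 329 and 368 in the wild type. The exon length of clpP1, 591 bases, is that of its coding sequence alone. Those of the nuclear genes are longer than their coding sequences (CLPP3, 1393 against 930 bases). This raises the ratio in both groups alike, so its size is not read.

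Of the 6 other plastid Clp genes, 2 were higher, 0 were lower (0 also at an unadjusted p under 0.05 and with DESeq2 and limma voom) and 4 did not pass. The shares over all genes were 10.7% higher and 11.3% lower by edgeR, and the count was not tested. CLPC2 (AT3G48870), the second CLPC unfoldase, stood at 23.1, 21.6 and 24.2 CPM in libraries labelled pp7l-1, against 8.97, 9.63 and 7.97 CPM in the wild type. Its log2 fold change of 1.37 ± 0.18 (adjusted p = 8.65e-05) is set beside that of CLPC1 with no test of the difference, and 19.9% of its exon bases lie in another gene. CLPT1 (AT4G25370), a plant accessory protein that binds the core, stood at 22.8, 24.1 and 26.9 CPM in libraries labelled pp7l-1, against 13.7, 16.2 and 10.6 CPM in the wild type (0.86 ± 0.20, adjusted p = 0.00552). Both passed under all 15 alternatives. The log2 fold changes of its partner CLPT2 (0.23 ± 0.21), of the substrate adaptors CLPS1 (-0.21 ± 0.20) and CLPF (0.04 ± 0.21), and of CLPD (-0.24 ± 0.20) did not pass.

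**Figure D5:**
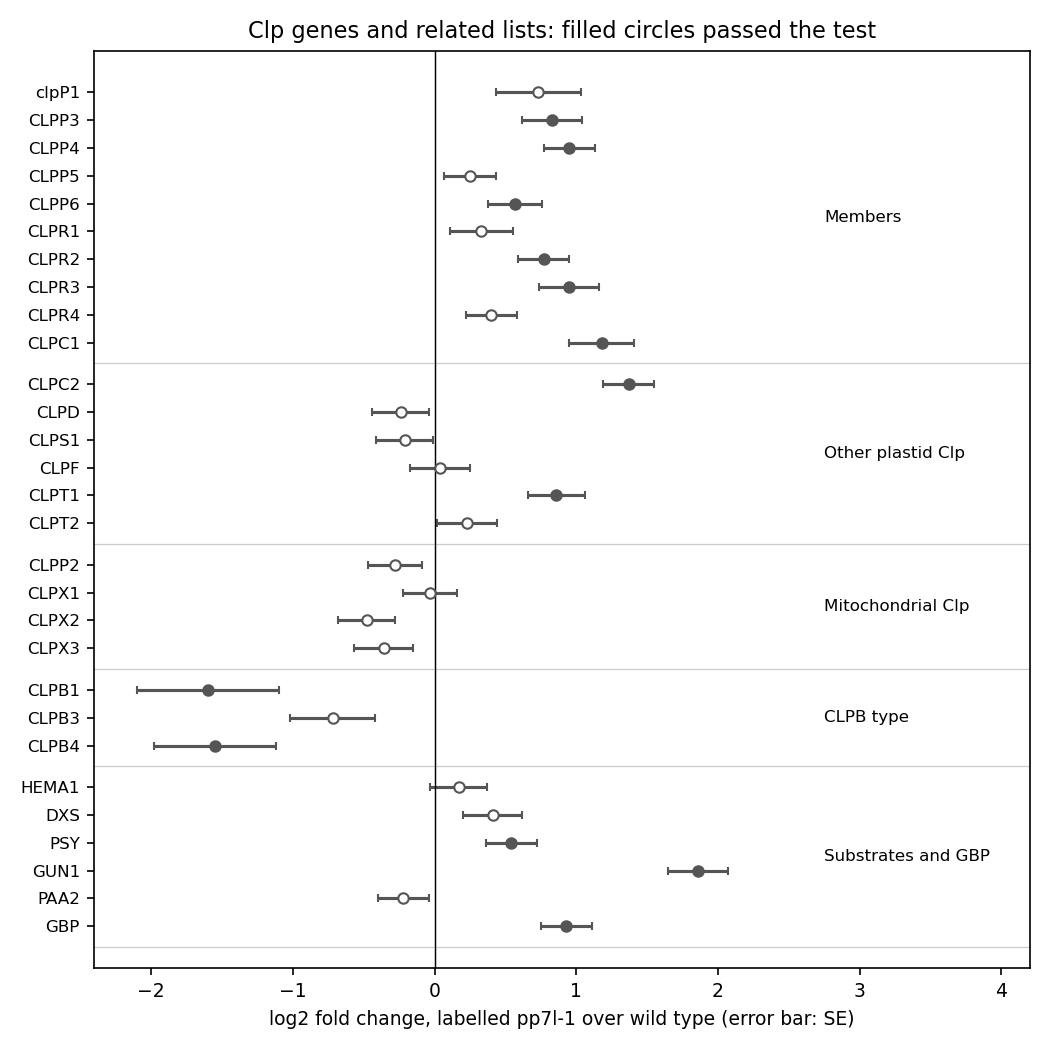
Log2 fold change, libraries labelled pp7l-1 over wild type, with its standard error, for the 10 Clp genes and 4 related lists. Filled circles passed the test at an adjusted p of 0.05. The filled circles lie right of 0 except for CLPB1 and CLPB4.

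The mitochondrial Clp protease, with its own core subunit and CLPX unfoldases, gave 0 calls among 4 genes with edgeR, DESeq2 and limma voom. Over all genes edgeR called 10.7% higher and 11.3% lower, so 0 of 4 does not show that these genes were unchanged. At an unadjusted p under 0.05 edgeR had 1 lower, CLPX2 (-0.48 ± 0.20, adjusted p = 0.0897), against 17.7% of all genes. Limma voom also had 1 lower. In 2 of the 4, CLPX2 and CLPX3, the libraries labelled pp7l-1 lay below the wild type without overlap, against 19.5% of all genes. These counts were not tested. The core subunit CLPP2 had a log2 fold change of -0.28 ± 0.19. Hsp100 proteins of the CLPB type undo protein aggregates and do not serve a protease. Of 3 such genes, 2 were called lower and 1 did not pass, where edgeR called 11.3% of all genes lower. CLPB1 (AT1G74310), the cytosolic HSP101, stood at 33.3, 13.5 and 6.11 CPM in libraries labelled pp7l-1 and at 79.4, 60.7 and 18.1 CPM in the wild type (-1.60 ± 0.50, adjusted p = 0.0314). Wild-type replicate 3 fell among the libraries labelled pp7l-1 there. The mitochondrial CLPB4 showed the same overlap, with 6.95, 4.10 and 3.39 CPM in libraries labelled pp7l-1 and 20.8, 16.9 and 3.43 CPM in the wild type (-1.55 ± 0.43, adjusted p = 0.0181). DESeq2 called neither (0.213 and 0.162), limma voom did not call CLPB4 (0.077), and neither passed without wild-type replicate 1 (0.149 and 0.107) or wild-type replicate 2 (0.0896 and 0.0699). CLPB1 also did not pass without replicate 2 or 3 labelled pp7l-1 (0.0734 and 0.0665). Replicate 3 had the lowest level of CLPB1 and of CLPB4 in both groups. With the replicate block in the edgeR fit, both passed, CLPB1 at -1.66 ± 0.21 (adjusted p = 4.75e-05) and CLPB4 at -1.33 ± 0.28 (adjusted p = 0.00287). The chloroplast CLPB3 had a log2 fold change of -0.72 ± 0.30 (adjusted p = 0.0968), which passed at -1.02 without wild-type replicate 3 (0.0113) and at -0.70 with no filter (0.00846).

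Proteins named as substrates of the protease, and 1 regulator, were set beside it at the level of their own transcripts, which does not measure their turnover. Of 6 genes, 3 were higher, 0 lower and 3 did not pass, where edgeR called 10.7% of all genes higher and 11.3% lower. The count was not tested. At an unadjusted p under 0.05, with DESeq2 and with limma voom, 0 were lower as well. GUN1 (AT2G31400), a pentatricopeptide repeat protein of plastid-to-nucleus signalling, had the largest change of the list, with 33.0, 27.8 and 40.7 CPM in libraries labelled pp7l-1, against 7.84, 8.67 and 11.6 CPM in the wild type (1.86 ± 0.21, adjusted p = 2.73e-05). GBP (AT3G21200), the protein that binds glutamyl-tRNA reductase and shields it from the protease, stood at 19.9, 18.3 and 21.1 CPM in libraries labelled pp7l-1, against 9.32, 11.1 and 10.7 CPM in the wild type (0.93 ± 0.18, adjusted p = 0.00173). Glutamyl-tRNA reductase itself, HEMA1, had a log2 fold change of 0.17 ± 0.20 and did not pass. Phytoene synthase (PSY), the entry enzyme of carotenoid synthesis, was called with 0.54 ± 0.18 (adjusted p = 0.0379). Leaving out any library other than replicate 2 labelled pp7l-1 ended that call (adjusted p between 0.0741 and 0.116). DXS (0.41 ± 0.21), the entry enzyme of plastid isoprenoid synthesis, and the copper transporter PAA2 (-0.22 ± 0.18) did not pass, though DXS passed without replicate 2 labelled pp7l-1 (0.59, adjusted p = 0.0465).

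The upstream regions of the nuclear genes were searched for 3 short motifs on both strands, in the 250 bases before each annotated start (RefSeq, TAIR10.1). TGGGCC, an element of many housekeeping promoters that TCP factors can bind, was in 5 of the 9 (55.6%), CLPP4, CLPP5, CLPP6, CLPR3 and CLPR4, and in 13.7% of 27444 nuclear protein-coding genes. CACGTG, the G-box of many light-regulated promoters, was in 1 of 9 (11.1%), CLPC1, against 6.49% of all. AAACCCTA, the telo-box, was in 0 of 9, against 4.49% of all. The motifs found do not overlap each other. Of the 5 genes with TGGGCC, 3 passed the test above and CLPP5 and CLPR4 did not. Of the genes without it, CLPP3, CLPR2 and CLPC1 also passed and CLPR1 did not. With motif matches in capitals, 3 of these regions are given, CLPR3 (chr1:2942346-2942595, minus strand), which rose and holds the motif at 2 places, CLPP5 (chr1:537490-537739, plus strand), which also holds it at 2 places and did not pass, and CLPC1 (chr5:20720682-20720931, minus strand), which holds CACGTG.
CLPR3: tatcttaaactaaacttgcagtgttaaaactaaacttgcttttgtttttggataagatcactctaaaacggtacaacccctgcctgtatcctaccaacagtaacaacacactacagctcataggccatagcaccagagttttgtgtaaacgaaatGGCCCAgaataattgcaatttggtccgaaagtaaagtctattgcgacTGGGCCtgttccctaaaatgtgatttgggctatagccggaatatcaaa
CLPP5: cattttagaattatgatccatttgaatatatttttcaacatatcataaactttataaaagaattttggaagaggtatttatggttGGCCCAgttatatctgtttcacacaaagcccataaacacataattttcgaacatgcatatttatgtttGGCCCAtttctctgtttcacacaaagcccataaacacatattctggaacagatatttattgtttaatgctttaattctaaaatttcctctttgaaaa
CLPC1: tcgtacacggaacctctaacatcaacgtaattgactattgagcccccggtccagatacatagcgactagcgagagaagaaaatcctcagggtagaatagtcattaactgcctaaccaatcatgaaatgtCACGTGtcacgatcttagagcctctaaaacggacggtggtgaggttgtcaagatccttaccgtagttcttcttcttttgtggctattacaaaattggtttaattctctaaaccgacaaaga
A match is a run of letters and not a measured binding site.

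Over the 6 libraries, which share their scaling and 2 genotypes, the genes whose log2 levels ran most like those of clpP1 were AT1G29950, AT1G80550, ERF1-3, SPA4 and AT5G35480 (Pearson r between 0.9913 and 0.9937). For CLPC1 they were AT2G40460, AT5G48620, UGT76E11, TL29 and SUVH9 (0.994 to 0.9964). Among the Clp genes themselves, CLPP6 (r = 0.93) ran closest to clpP1 and CLPP3 (r = 0.9747) closest to CLPC1, while CLPR1 had the lowest r with both (0.4519 and 0.7412). Many genes rank before them, since CLPP6 was 247th of all genes for clpP1 and CLPP3 116th for CLPC1.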

How the data were processed

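Each library came as 1 table of raw read counts for 33341 genes, which the authors deposited as whole numbers without normalization. Trimmomatic, FastQC, TopHat2 2.1.1 and featureCounts, and the build TAIR10, are named per the submitters' processing notes. The annotation counted and how strand, overlaps and multiply matching reads were handled are not given in the sources used here. Gene codes were matched to RefSeq (TAIR10.1) for 33056 genes, from which exon lengths, coordinates and sequences were taken. Among the plastid codes in the lists, the annotation names ATCG00670 and ATCG00660, and the others are given by code.

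Counts were filtered with filterByExpr (minimum count 10), library sizes were scaled by TMM, the trimmed mean of M values, and genotype was the only term of a quasi-likelihood fit in edgeR 4.0.16 (R 4.3.3). All 6 libraries entered the fit, Benjamini-Hochberg adjustment ran over 18115 genes, and the common biological coefficient of variation was 0.196. The SE given with each edgeR log2 fold change was derived from the test, as its absolute value over the square root of the F statistic. Alternatives were DESeq2 1.42.0, limma 3.58.1 (voom), 4 scalings, 2 filters, the replicate block and each library left out. Coding sequences of the P and R genes were aligned as proteins, and those of CLPC1 and CLPC2 as bases, with MAFFT 7.526. Likeness is Pearson's r of log2(CPM + 0.5). Level per kilobase of exon on the TMM scale was added after the data were seen, because 1 short non-coding gene, AT2G09250, took 10.1% to 24.4% of the per-length total of nuclear genes. The order of the genes was the same on both scales, though CLPP5 and CLPR2 overlapped in libraries labelled pp7l-1 without TMM.

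The Clp genes and the lists were chosen with earlier results of these data known. Named were the 10 Clp genes, the genes of each list by count with the smallest p in each direction, and the 5 genes most like clpP1 and CLPC1. Other list genes named, and the RNA factors in the closing section, were chosen after their values were seen. The replicate numbers are not treated as pairs, since the deviations of same-numbered libraries correlated by 0.1, -0.028 and 0.0535. These correlations run over all tested genes and cannot tell whether some genes share a replicate effect.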

Additional observations from a re-analysis of the deposited data

How the results depend on the processing

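The count of 6 Clp genes higher was 10 on library size alone, 7 with limma voom, 6 with the replicate block and between 4 and 6 with 1 library left out, the lowest without wild-type replicate 2. The shares of all genes called higher were 10.7% as reported, 24.8% on library size alone and 10.4% with limma voom. They were 11% with the replicate block and 6.8% to 11.4% with 1 library left out. The count of Clp genes lower was 0 throughout. Over all genes 3974 were called (21.9% of 18115), 4151 with the replicate block and 2671 to 4365 with 1 library left out. Of the 27 other list genes 12 were called, 10 higher and 2 lower. With 1 library left out 6 to 13 were called (6 without wild-type replicate 1 and 7 without wild-type replicate 2). The clpP1 share of plastid counts differed by 0.470 percentage points, and by 0.385 to 0.530 with 1 library left out. The log2 ratio of the summed per-length levels was 1.15, or 0.76 on the TMM scale, and 0.84 to 1.40 with 1 library left out. Log2 fold changes that turned positive on library size alone were those of CLPD (0.21), CLPS1 (0.20), CLPP2 (0.11), CLPX1 (0.41), CLPX3 (0.05), PAA2 (0.20), ATCG00640 (0.07) and PDE247 (0.25), and none of these was past the threshold. CLPX1 was also 0.01 under upper quartile scaling. With 1 library left out, CLPX1 lay between -0.13 and 0.12, CLPF between -0.03 and 0.10 and PDE247 between -0.29 and 0.06. The causes were not tested. The labels give same-numbered libraries no link beyond the number. The block changed no call among the Clp genes, but the SE of CLPB1 was 0.50 without it and 0.21 with it. Whether some genes share a replicate effect was not tested.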

Other observations

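RefSeq notes on 2 nuclear genes name RNA factors that act on the clpP transcript of the plastid, and these were looked up after the data were seen. CAF1 (AT2G20020), a factor for the splicing of plastid group II introns, stood at 3.43, 2.64 and 4.39 CPM in libraries labelled pp7l-1, against 1.34, 1.99 and 1.57 CPM in the wild type. Its log2 fold change was 1.09 ± 0.29 (edgeR, adjusted p = 0.0138), and it did not pass without replicate 3 labelled pp7l-1 (adjusted p = 0.065) or wild-type replicate 1 (adjusted p = 0.0647). These values rest on few reads, 42, 38 and 79 in libraries labelled pp7l-1 and 19, 31 and 17 in the wild type. PDE247 (AT1G05750), a pentatricopeptide repeat protein of plastid RNA editing, stood at 1.80, 2.85 and 2.44 CPM in libraries labelled pp7l-1 and at 2.33, 2.31 and 3.52 CPM in the wild type, with a log2 fold change of -0.17 ± 0.28 (adjusted p = 0.708).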
